A study of Mus musculus with 6 samples.

Results

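Interferon response genes are the genes that a cell switches on, or uses to answer, when interferon binds to its receptors. A list of 39 such genes was followed through the testes of 3 inbred mouse strains. A gene was represented by the array's probe sets that the platform annotation assigned to its symbol alone, and among these by the probe set with the highest mean over the 6 arrays, with the others kept as a check. By this rule 36 of the 39 genes were measured, of 18193 genes measured on the array, and 28 of the 36 had a probe set bright enough to be tested. Isg15, Oas1g and Ifi44 had no probe set of their own symbol and were not analysed here as single genes.

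The study profiled total RNA of whole testes from C57BL/6, AKR/N and MRL/MpJ+/+ mice, all 8 weeks old and with no treatment named, on a GeneChip array, in which a probe set is a group of short probes for a transcript. Each strain was represented by 2 mice and 1 array per mouse, so every comparison below set 2 arrays against 2, and the number of arrays limits the precision of every value. The strains are inbred lines that differ at many loci at once, and whether such differences lay under the probes was not tested. MRL/MpJ+/+ is the form of the MRL line without the lpr mutation of Fas, and MRL mice are known for a tendency to autoimmune disease. Both comparisons with C57BL/6 used the same 2 C57BL/6 arrays.

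Interferons are secreted by cells that sense foreign or misplaced nucleic acid, and type I and type II interferons act through separate receptors whose chains include Ifnar1 and Ifngr1. Receptor signals run through JAK kinases to STAT proteins, which with Irf9 bind the interferon-stimulated response element (ISRE) or, as STAT dimers, the gamma-activated site (GAS) in front of target genes. The products of these targets cleave, edit or sequester viral RNA, modify proteins with ISG15, or attack membranes around pathogens. In testis, macrophages and Leydig cells of the interstitium and Sertoli cells of the tubules are known to respond to interferon.

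The binding elements are shown first, and their share among these genes was above that among all genes. The list holds genes known to answer interferon, whose signals run through these elements, so that share was not independent of the list. It also carries no information on the strains. Promoters from RefSeq on GRCm38.p6 were available for 32 of the 39 genes, each from 250 bases before to 50 bases after a start site. An ISRE, searched as GAAA and GAAA with any 2 bases between on both strands, stood in the promoters of 16 of the 32 genes (50%), compared with 3.99% of the 27025 genes in the promoter table. A GAS, searched as TTCNNNGAA, which reads the same on both strands, stood in 10 of 32 (31.2%), compared with 9.55% of all genes. The windows below lie before the start site, read 5′ to 3′ along the strand of the gene, and are shown for 7 targets with an ISRE and for the regulators Irf1 and Irf8 with a GAS. Capitals mark the matched letters.
Ifit1 ISRE window (chr19:34640770-34640828, plus strand): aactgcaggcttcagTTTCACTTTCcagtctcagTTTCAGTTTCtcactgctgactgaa
Ifit3 ISRE window (chr19:34583358-34583431, plus strand): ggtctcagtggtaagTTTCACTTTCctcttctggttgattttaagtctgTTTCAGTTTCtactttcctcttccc
Isg15 ISRE window (chr4:156200860-156200911, minus strand): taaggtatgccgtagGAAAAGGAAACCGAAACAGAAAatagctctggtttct
Oas1a ISRE window (chr5:120907526-120907560, minus strand): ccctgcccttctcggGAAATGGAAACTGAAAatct
Bst2 ISRE window (chr8:71537572-71537617, minus strand): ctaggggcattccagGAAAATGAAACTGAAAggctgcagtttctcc
Gbp2 ISRE window (chr3:142620589-142620628, plus strand): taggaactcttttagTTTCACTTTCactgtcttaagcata
Irgm1 ISRE window (chr11:48871421-48871465, minus strand): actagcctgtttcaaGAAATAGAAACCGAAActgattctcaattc
Irf1 GAS window (chr11:53769909-53769947, plus strand): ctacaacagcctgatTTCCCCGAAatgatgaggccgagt
Irf8 GAS window (chr8:120736172-120736228, plus strand): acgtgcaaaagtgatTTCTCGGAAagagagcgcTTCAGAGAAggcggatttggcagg
Isg15 carried 3 overlapping ISRE matches, and Ifit1 and Ifit3 each carried 2 separate ones. In Bst2 a GAS match ran into the ISRE at its 5′ end. The nearest match lay 85 bases before the start site in Ifit1, 66 in Isg15 and 14 in Oas1a. Of the 3 genes called between strains, Irf8 had a GAS, Trim25 had neither motif, and Dhx58 was not in the promoter table. A match is a run of letters in a window and was not tested as a binding site.

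Counted by gene, the share of interferon response genes called was near or below the share over all genes, and that difference was not tested. Counted by probe set, 6 of 45 (13.3%) were called in MRL/MpJ+/+ against C57BL/6, compared with 10% of all tested probe sets. The direction in that comparison therefore depended on the unit counted. In AKR/N against C57BL/6 the probe set shares were 6.67% and 9.97%, and in MRL/MpJ+/+ against AKR/N 2.22% and 6.91%. In MRL/MpJ+/+ against C57BL/6, 3 of 28 tested members (10.7%) passed limma's test at an adjusted p under 0.05, compared with 12.2% of the 14461 genes tested. Irf8 and Trim25 were higher in MRL/MpJ+/+ (6.1% of genes were called higher) and Dhx58 was lower (6.12% of genes). In AKR/N against C57BL/6, 2 of 28 (7.14%) passed, compared with 11.9% of genes, Trim25 higher (6.39% of genes) and Dhx58 lower (5.5% of genes). Between MRL/MpJ+/+ and AKR/N, 0 of 28 passed, compared with 8.75% of genes, and at an unadjusted p under 0.05 the count was 2 of 28, compared with 24.5% of genes. A test for any strain difference called the same 3 members, or 10.7%, against 18.4% of genes.

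The sizes of the differences were read on the scale of log2(intensity + 16), on which changes of dim genes come out smaller than they are. The median difference of the 28 members was -0.08 in MRL/MpJ+/+ against C57BL/6, -0.05 in AKR/N against C57BL/6 and -0.05 in MRL/MpJ+/+ against AKR/N, while the median of all tested genes was 0.01 in each. Estimates of the 28 members ran from -0.97 to 0.80, from -0.81 to 0.64 and from -0.66 to 0.55 in these comparisons. On the scale of mean intensity without the added 16, Oas1a differed by more than 2-fold, in MRL/MpJ+/+ against C57BL/6. The other tested members past 2-fold had passed the brightness filter through the arrays of 1 strain alone, so no count is read from them. On the log2 scale the 95% confidence interval lay wholly inside a 2-fold change in either direction for 23, 23 and 20 of the 28 members, compared with 87.3%, 87.4% and 90.3% of all genes. Of the 28, Oasl2, Slfn8, Ifit3 and Gbp2 passed the brightness filter through the arrays of 1 strain alone, so a difference was built into their testing. The ends -0.97, -0.81 and 0.55 of the ranges above belonged to Oasl2, Slfn8 and Gbp2. Without these 4 the called members were the same 3, 2 and 0, now of 24, and the medians were -0.057, -0.024 and -0.051. The arrays of the strains did not overlap for 14 of 28 members in MRL/MpJ+/+ against C57BL/6 (55.6% of all genes), with 5 higher (28.9% of genes) and 9 lower (26.7% of genes). The same count was 12 of 28 in AKR/N against C57BL/6 (54.7% of genes) and 10 of 28 in MRL/MpJ+/+ against AKR/N (54.6% of genes). Oasl2, Slfn8, Ifit3 and Gbp2 were all among the 14. Oasl2, Slfn8 and Ifit3 were among the 12, and Oasl2, Ifit3 and Gbp2 among the 10. Part of each count was thus built in by the filter, and nothing is read from these counts.

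**Figure D1:**
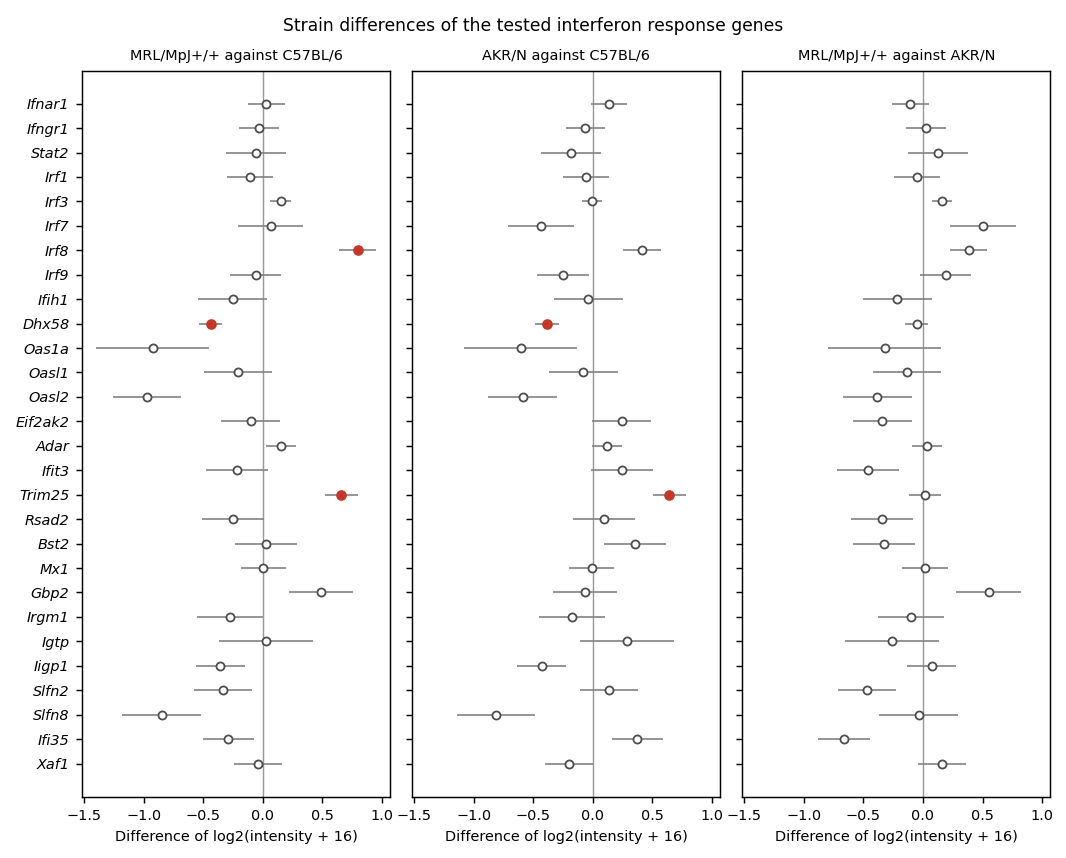
Differences between strains of the 28 tested interferon response genes on the log2(intensity + 16) scale, with bars for the standard error and red points for an adjusted p under 0.05 by limma. Irf8, Trim25 and Dhx58 hold the red points, and in MRL/MpJ+/+ against AKR/N there are 0.

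Neither receptor chain passed in any comparison. Ifngr1, the ligand-binding chain of the interferon gamma receptor, measured 86.8 and 89.4 intensity units in C57BL/6, 97.0 and 71.9 in AKR/N, and 97.9 and 74.6 in MRL/MpJ+/+. All 3 strains overlapped, and the difference of MRL/MpJ+/+ from C57BL/6 was -0.035 on the log2 scale (SE 0.167, adjusted p = 0.928 by limma). Ifnar1, a chain of the type I receptor, ran from 64.3 to 82.5 over the 6 arrays, and its smallest adjusted p in the 3 comparisons was 0.651. A second Ifnar1 probe set measured 28.3 and 39.7 units in C57BL/6, 21.0 and 22.3 in AKR/N, and 24.4 and 26.6 in MRL/MpJ+/+, with C57BL/6 highest, and differed by -0.26 in MRL/MpJ+/+ (adjusted p = 0.525) and -0.40 in AKR/N (adjusted p = 0.310).

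Among the signal carriers and interferon regulatory factors, Irf8 was the member with the smallest adjusted p. Irf8 is a transcription factor needed for macrophage and dendritic cell development and induced by interferon gamma. Its probe set measured 63.5 and 68.6 units in C57BL/6, 80.1 and 108 in AKR/N, and 117 and 137 in MRL/MpJ+/+. The 3 strains did not overlap, with C57BL/6 lowest and MRL/MpJ+/+ highest. The mean was 66.1 ± 3.6 units (SD, n = 2) in C57BL/6, 94.0 ± 19.7 (SD, n = 2) in AKR/N and 127 ± 14.4 (SD, n = 2) in MRL/MpJ+/+. Irf8 was higher in MRL/MpJ+/+ than in C57BL/6 by 0.80 on the log2 scale (SE 0.156, 95% confidence interval 0.45 to 1.14, adjusted p = 0.009 by limma). AKR/N stood between the others, 0.41 above C57BL/6 (adjusted p = 0.135) and 0.38 below MRL/MpJ+/+ (adjusted p = 0.193), and neither difference passed. A second Irf8 probe set gave the same order of means and a difference of 1.01 between MRL/MpJ+/+ and C57BL/6 (adjusted p = 0.0454). Without the second MRL/MpJ+/+ array the difference was 0.69 and its adjusted p 0.0822, and without a variance trend the adjusted p was 0.0612.

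Irf8 marks macrophages and dendritic cells, and in RNA of whole tissue fewer cells of a type and less RNA per cell cannot be told apart. Of 13 tested macrophage markers, Cd14 passed, lower in MRL/MpJ+/+ than in C57BL/6, and at an unadjusted p under 0.05 the counts over all 13 were 3, 3 and 1 in the 3 comparisons. Cx3cr1 measured 29.4 and 27.9 units in C57BL/6, 59.3 and 42.7 in AKR/N, and 38.6 and 53.4 in MRL/MpJ+/+, with C57BL/6 lowest, as for Irf8 (adjusted p = 0.193 for MRL/MpJ+/+ and 0.112 for AKR/N). Mertk was 0.33 above C57BL/6 in MRL/MpJ+/+ (adjusted p = 0.200) and Csf1r 0.30 above it in AKR/N (adjusted p = 0.127), and neither passed. Cx3cr1, Mertk and Csf1r were picked from the 13 markers. The medians of all 13 were -0.08, -0.06 and -0.11 in the 3 comparisons. The summed macrophage markers ran from 1179 to 1200 units in C57BL/6, from 1212 to 1252 in AKR/N and from 1124 to 1143 in MRL/MpJ+/+. Siglech, a defining marker of plasmacytoid dendritic cells, measured 3.17 and 9.73 units in C57BL/6, 25.4 and 18.1 in AKR/N, and 12.9 and 21.1 in MRL/MpJ+/+, and did not pass in any comparison. All 5 markers of that cell type were tested and 1, Irf8 itself, was called. Their sum was 262 to 279 units in C57BL/6, 339 to 366 in AKR/N and 381 to 387 in MRL/MpJ+/+, a list that also holds the members Irf7 and Bst2. The part of these cells in the Irf8 difference was not tested.

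Irf3, the factor that switches on interferon genes after nucleic acid is sensed, did not pass with its representative probe set. It measured 414 and 424 units in C57BL/6, 437 and 396 in AKR/N, and 455 and 478 in MRL/MpJ+/+. The MRL/MpJ+/+ arrays stood above the other 4, by 0.15 against C57BL/6 (adjusted p = 0.319). Irf3 had 3 further tested probe sets, and 1 of them measured 112 and 95.5 units in C57BL/6, 89.8 and 74.8 in AKR/N, and 150 and 182 in MRL/MpJ+/+. That probe set was higher in MRL/MpJ+/+ than in C57BL/6 by 0.60 (adjusted p = 0.0241 by limma) and than in AKR/N by 0.89 (adjusted p = 0.00468). All 3 further probe sets, like the representative one, had higher estimates in MRL/MpJ+/+ in these comparisons. The Irf3 probe sets thus shared the direction and disagreed on size and on the call.

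Of the remaining factors, 0 passed in any comparison. Irf7, the factor that amplifies interferon production, measured 36.1 and 17.0 units in C57BL/6, 17.3 and 12.1 in AKR/N, and 24.3 and 30.8 in MRL/MpJ+/+, and the 2 C57BL/6 mice spanned most of that range. Irf1, an early target of interferon gamma, ran from 56.4 to 96.7 units, with both extremes in AKR/N. Stat2 and Irf9, which form the factor that binds the ISRE, ran from 18.6 to 37.7 and from 22.7 to 35.9 units.

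**Figure D2:**
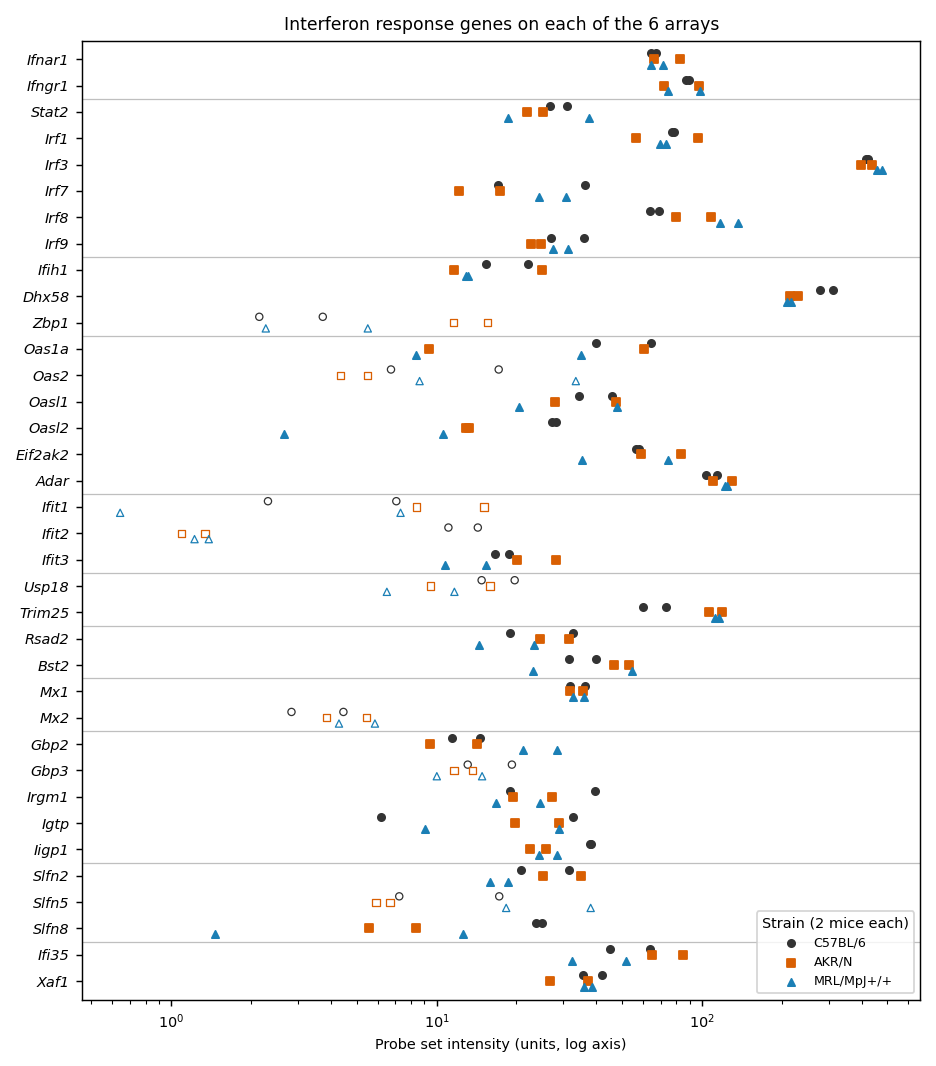
Intensity of the representative probe set of each measured interferon response gene on each of the 6 arrays, by strain on a log axis, with filled points for probe sets that passed the filter on dim values and open points for those not tested. The arrays of C57BL/6 lie above the others for Dhx58 and below them for Trim25 and Irf8, and 8 members have open points.

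Dhx58 was the 1 nucleic acid sensor of the list that differed. It encodes LGP2, a helicase that binds double-stranded RNA and tunes signalling by the related sensors RIG-I and MDA5. Its brightest probe set measured 279 and 311 units in C57BL/6, 215 and 229 in AKR/N, and 217 and 210 in MRL/MpJ+/+. Both C57BL/6 arrays stood above all 4 others, and AKR/N and MRL/MpJ+/+ overlapped. The mean was 295 ± 22.4 units (SD, n = 2) in C57BL/6, 222 ± 10.1 (SD, n = 2) in AKR/N and 213 ± 5.09 (SD, n = 2) in MRL/MpJ+/+. Dhx58 was lower than in C57BL/6 by 0.44 on the log2 scale in MRL/MpJ+/+ (-0.44, SE 0.0994, adjusted p = 0.0188 by limma). It was lower by 0.38 in AKR/N (-0.38, SE 0.0994, adjusted p = 0.0348). MRL/MpJ+/+ and AKR/N differed by -0.054 (adjusted p = 0.838).

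A second Dhx58 probe set showed less of this. It measured 107 and 110 units in C57BL/6, 99.4 and 88.4 in AKR/N, and 98.7 and 102 in MRL/MpJ+/+, with the C57BL/6 arrays again highest. The differences were -0.10 (adjusted p = 0.687) and -0.18 (adjusted p = 0.427), and neither passed. With the mean of its 3 probe sets the adjusted p was 0.378 in MRL/MpJ+/+ and 0.276 in AKR/N. The call in MRL/MpJ+/+ was also lost without the second C57BL/6 array (adjusted p = 0.103), the first MRL/MpJ+/+ array (0.080) or the second (0.107). That in AKR/N was lost without the first AKR/N array (0.192), the second (0.106), the second C57BL/6 array (0.177) or either MRL/MpJ+/+ array (0.0538 and 0.0536).

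The other sensors lay near or below the brightness filter. Ifih1, which encodes MDA5, measured 22 and 15.4 units in C57BL/6, 25.0 and 11.6 in AKR/N, and 13.1 and 12.9 in MRL/MpJ+/+, with a smallest adjusted p of 0.653. Zbp1, a sensor of left-handed nucleic acid, measured 2.15 and 3.73 units in C57BL/6, 15.5 and 11.6 in AKR/N, and 5.51 and 2.27 in MRL/MpJ+/+. All 6 Zbp1 values lay below that filter, whose level was 17.8 to 20.8 units across arrays, so the gene was not tested.

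The enzymes of double-stranded RNA did not pass in any comparison. Adar, which edits adenosine to inosine in such RNA, measured 104 and 114 units in C57BL/6, 110 and 130 in AKR/N, and 122 and 124.6 in MRL/MpJ+/+. The MRL/MpJ+/+ arrays stood above those of C57BL/6 and inside the span of AKR/N, and the smallest adjusted p was 0.510. Eif2ak2, the kinase that halts translation on double-stranded RNA, measured 57.9 and 56.3 in C57BL/6, 59.2 and 83.3 in AKR/N, and 35.3 and 74.6 in MRL/MpJ+/+. The 2 MRL/MpJ+/+ mice held both the lowest value and the next to highest.

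Oasl2, an oligoadenylate synthetase-like protein with ubiquitin-like domains, was not called either. It measured 27.1 and 28.2 units in C57BL/6, 13.2 and 12.9 in AKR/N, and 10.6 and 2.65 in MRL/MpJ+/+. Both C57BL/6 arrays stood above all others, and the 3 strains did not overlap. The AKR/N and MRL/MpJ+/+ arrays all lay below the brightness filter, so Oasl2 was tested through C57BL/6 alone and no fold is given for it.

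Oas1a makes the oligoadenylate that activates RNase L. It measured 39.9 and 64.3 units in C57BL/6, 60.5 and 9.35 in AKR/N, and 35.1 and 8.34 in MRL/MpJ+/+. In AKR/N and in MRL/MpJ+/+ the first mouse stood far above the second, and the estimate of -0.92 in MRL/MpJ+/+ against C57BL/6 had the widest error of all members (SE 0.474, adjusted p = 0.266). Oasl1 ran from 20.4 to 47.9 units, with both of these values in MRL/MpJ+/+. Oas2 was not tested, and its highest value was 33.5 units in the second MRL/MpJ+/+ mouse.

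The IFIT proteins bind viral RNA at its 5′ end. Ifit3 measured 16.6 and 18.7 units in C57BL/6, 28.1 and 20.1 in AKR/N, and 15.4 and 10.7 in MRL/MpJ+/+. The strains did not overlap, with AKR/N highest and the 1 strain above the brightness filter, and no comparison passed. Ifit1 and Ifit2 were below the filter. Ifit2 measured 14.3 and 11.1 units in C57BL/6, 1.34 and 1.1 in AKR/N, and 1.39 and 1.22 in MRL/MpJ+/+, and it was called lower in both strains when the filter was dropped.

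Within the ISG15 system, Trim25 was higher in both other strains than in C57BL/6. Trim25 is a ubiquitin and ISG15 ligase that helps activate RIG-I. Its brightest probe set measured 73.3 and 59.99 units in C57BL/6, 106 and 119 in AKR/N, and 112 and 116 in MRL/MpJ+/+. Both C57BL/6 arrays stood below all 4 others, and AKR/N and MRL/MpJ+/+ overlapped. The mean was 66.6 ± 9.41 units (SD, n = 2) in C57BL/6, 113 ± 9.14 (SD, n = 2) in AKR/N and 114 ± 3.20 (SD, n = 2) in MRL/MpJ+/+.

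Trim25 was higher than in C57BL/6 by 0.66 in MRL/MpJ+/+ (SE 0.138, adjusted p = 0.0126 by limma) and by 0.64 in AKR/N (SE 0.138, adjusted p = 0.0144). MRL/MpJ+/+ and AKR/N differed by 0.017 (95% confidence interval -0.29 to 0.32, adjusted p = 0.971). A second probe set measured 59.3 and 63.6 units in C57BL/6, 98.3 and 104 in AKR/N, and 91.1 and 96.2 in MRL/MpJ+/+. It passed in both comparisons as well, by 0.50 (adjusted p = 0.0372) and 0.60 (adjusted p = 0.0167), and the third, dimmer probe set pointed the same way without passing. The call in MRL/MpJ+/+ was lost without the second C57BL/6 array (adjusted p = 0.0705), the first MRL/MpJ+/+ array (0.0646) or the second (0.082). That in AKR/N was lost without the first AKR/N array (0.0516), the second (0.122) or the second C57BL/6 array (0.089).

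**Figure D3:**
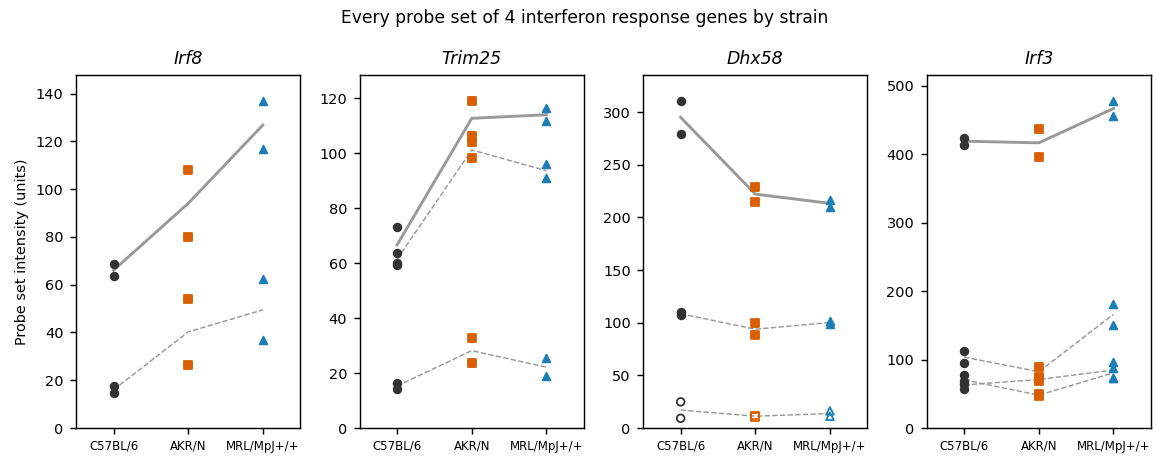
Intensity by array of each probe set of Irf8, Trim25, Dhx58 and Irf3 on a linear axis, with solid lines for the representative probe set and dashed lines for the others. The Trim25 probe sets are lowest in C57BL/6, the representative Irf8 probe set is highest in MRL/MpJ+/+, and the dashed lines of Dhx58 and Irf3 depart from their solid lines.

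The other members of the ISG15 system gave little signal. Usp18, the protease that removes ISG15 and restrains the type I receptor, measured 6.5 to 19.7 units and was not tested. A probe set assigned jointly to Isg15 and the predicted gene Gm9706 measured 21.9 and 47.3 units in C57BL/6, 18.3 and 34.4 in AKR/N, and 39.9 and 35.7 in MRL/MpJ+/+, and the 2 genes cannot be told apart there. Its adjusted p for any strain difference was 0.623.

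The antiviral membrane proteins did not pass. Bst2, or tetherin, which holds budding virions at the cell surface, measured 39.8 and 31.5 units in C57BL/6, 46.4 and 53.1 in AKR/N, and 54.4 and 23.1 in MRL/MpJ+/+. The MRL/MpJ+/+ mice held both the highest and the lowest value. Rsad2, or viperin, ran from 14.5 to 32.7 units.

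Mx1, a dynamin-like GTPase that blocks orthomyxoviruses, had the highest adjusted p of the tested members for any strain difference (0.998). It measured 31.9 and 36.3 units in C57BL/6, 31.8 and 35.6 in AKR/N, and 32.7 and 35.8 in MRL/MpJ+/+. The difference of MRL/MpJ+/+ from C57BL/6 was 0.01, with a 95% confidence interval of -0.42 to 0.43 (adjusted p = 0.991). Mx2 lay between 2.84 and 5.86 units and was not tested.

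The guanylate-binding proteins and immunity-related GTPases, which disrupt the vacuoles around intracellular pathogens, did not pass either. Iigp1 measured 37.8 and 38.3 units in C57BL/6, 25.8 and 22.6 in AKR/N, and 24.2 and 28.3 in MRL/MpJ+/+. Both C57BL/6 arrays stood above the rest, by estimates of -0.36 for MRL/MpJ+/+ (adjusted p = 0.323) and -0.43 for AKR/N (adjusted p = 0.235). Gbp2 measured 11.5 and 14.5 units in C57BL/6, 14.2 and 9.40 in AKR/N, and 21.1 and 28.4 in MRL/MpJ+/+, where both arrays were highest and the 2 above the brightness filter, and it was not called. Igtp ran from 6.20 to 32.7 units with both extremes in C57BL/6, and Irgm1 from 16.8 to 39.5. Gbp3 lay between 10.0 and 19.2 units and was not tested.

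The Schlafen proteins are regulators of lymphocyte growth and restriction factors. Slfn2 measured 31.4 and 20.8 units in C57BL/6, 25.2 and 35.1 in AKR/N, and 18.6 and 15.8 in MRL/MpJ+/+, where both arrays were lowest (adjusted p = 0.453 against C57BL/6). Slfn8 measured 23.6 and 24.9 units in C57BL/6, 8.39 and 5.58 in AKR/N, and 12.6 and 1.46 in MRL/MpJ+/+. Its C57BL/6 arrays stood above the others, all 4 of which lay below the brightness filter, and it was not called. Slfn5 measured 5.91 to 38.1 units, highest in the first MRL/MpJ+/+ mouse, and was not tested.

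Of the remaining induced genes, Ifi35, a leucine zipper protein, measured 63.9 and 45.0 units in C57BL/6, 65.0 and 84.8 in AKR/N, and 32.3 and 51.6 in MRL/MpJ+/+. The AKR/N arrays stood highest, and the estimate of -0.66 in MRL/MpJ+/+ against AKR/N had the smallest adjusted p of the members in that comparison, 0.102. Xaf1, an inducer of apoptosis, ran from 26.7 to 41.9 units.

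Many of the members were dim. At the filter used, in which at least 2 of the 6 arrays had to lie above the 40th percentile of their array, 28 of 36 members passed (77.8%), compared with 79.5% of genes. At the 60th percentile 13 of 36 members passed (36.1%), compared with 60.5% of genes. The 8 members not tested were Zbp1, Oas2, Ifit1, Ifit2, Usp18, Mx2, Gbp3 and Slfn5.

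Mice of the same strain also differed in these genes. The median absolute difference between the 2 mice of a strain over the 28 tested members was 0.22 on the log2 scale in MRL/MpJ+/+, 0.25 in AKR/N and 0.15 in C57BL/6, while over all tested genes it was 0.13, 0.12 and 0.15. Between strains, the median absolute difference of the means of 2 mice was 0.21 in MRL/MpJ+/+ against C57BL/6, 0.22 in AKR/N against C57BL/6 and 0.18 in MRL/MpJ+/+ against AKR/N. More than 0.5 separated the 2 mice in 4 members in C57BL/6 (10.2% of genes), 4 in AKR/N (6.88% of genes) and 8 in MRL/MpJ+/+ (7.17% of genes). The members did not move as a block between mice, since 12 were higher in the first MRL/MpJ+/+ mouse and 16 in the second, and the split was 14 and 14 in AKR/N. Oas1a differed by 1.59 between the AKR/N mice and by 1.07 between the MRL/MpJ+/+ mice, both times higher in the first, and Igtp by 1.13 between the C57BL/6 mice. Each is a difference between single mice, with no replicate.

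**Figure D4:**
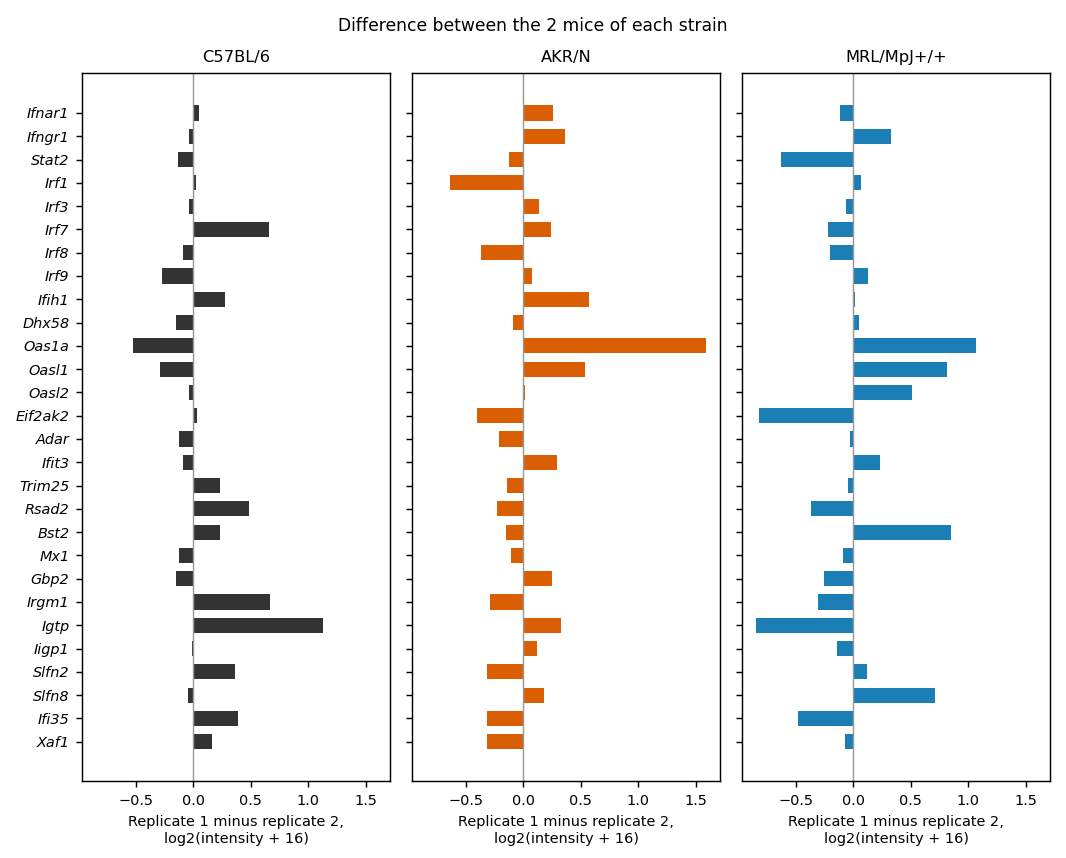
Difference between the first and the second mouse of each strain for each tested interferon response gene, on the log2(intensity + 16) scale. Oas1a reaches 1.59 in AKR/N, and the members lie on both sides of 0 in each strain.

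Around the list, the genes that make and sense interferon were examined as 5 further lists of the pathway. Of the ligands, receptors and JAK-STAT genes, 12 of 25 were tested. In MRL/MpJ+/+ against C57BL/6, 1 was higher and 1 lower by limma (12.2% of genes were called either way). In AKR/N against C57BL/6 (11.9% of genes) and MRL/MpJ+/+ against AKR/N (8.75% of genes) 0 passed. At an unadjusted p under 0.05 the counts were 6, 4 and 2 of 12 in the 3 comparisons, where the shares over all genes were 27.9%, 26.7% and 24.5%. The medians of the list were 0.23, 0.05 and 0.06 in these comparisons. The ligands Ifna1, Ifna2, Ifna4, Ifna5, Ifnb1 and Ifng did not pass the brightness filter, and no array exceeded 30.4 units for any of them. Stat3, which carries cytokine and interferon signals, measured 198 and 198 units in C57BL/6, 219 and 249 in AKR/N, and 271 and 269 in MRL/MpJ+/+, and was higher in MRL/MpJ+/+ than in C57BL/6 by 0.42 (adjusted p = 0.0243). Its other tested probe sets differed by -0.31 and 0.05 and did not pass. Irf2, a factor that competes with Irf1, was lower in MRL/MpJ+/+ than in C57BL/6 (-0.95, adjusted p = 0.0275). The Stat3 call was lost without either C57BL/6 or either MRL/MpJ+/+ array (adjusted p from 0.0727 to 0.122), and the Irf2 call with any 1 array left out other than the second C57BL/6 one (0.0505 to 0.145).

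Of the genes that sense nucleic acid upstream of interferon, 14 of 25 were tested. In MRL/MpJ+/+ against C57BL/6, 0 were higher and 2 lower (12.2% of genes were called either way). The same 2 genes, Myd88 and G3bp1, were the 2 lower in MRL/MpJ+/+ against AKR/N (8.75% of genes). In AKR/N against C57BL/6, 1, Irak1, was higher (11.9% of genes). The medians of the list were -0.26 in MRL/MpJ+/+ against C57BL/6, 0.03 in AKR/N against C57BL/6 and -0.15 in MRL/MpJ+/+ against AKR/N. Myd88, the adaptor of most Toll-like receptors, measured 162 and 136 units in C57BL/6, 156 and 175 in AKR/N, and 37.8 and 33.0 in MRL/MpJ+/+. Both MRL/MpJ+/+ arrays stood far below the other 4, and Myd88 had no other probe set as a check. Myd88 was lower in MRL/MpJ+/+ by 1.68 on the log2 scale than in C57BL/6 (-1.68, SE 0.139, adjusted p = 3.17e-05). It was lower by 1.82 than in AKR/N (-1.82, SE 0.139, adjusted p = 2.61e-05), and both calls held with each array left out in turn.

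The other sensing calls were smaller. G3bp1, a stress granule protein that aids sensing of DNA and RNA, was lower in MRL/MpJ+/+ than in C57BL/6 (-0.39, adjusted p = 0.0114) and than in AKR/N (-0.30, adjusted p = 0.0471), while its other probe set differed by 0.28 and 0.38 and did not pass. The first call was lost without the second C57BL/6 array or either MRL/MpJ+/+ array (adjusted p from 0.0627 to 0.0725), and the other with any 1 of the 4 compared arrays left out (0.152 to 0.25). Irak1, a kinase downstream of Myd88, was higher in AKR/N than in C57BL/6 by 0.90 (adjusted p = 0.0248), and its 3 other probe sets, which differed by -0.26, 0.14 and 0.27, did not pass. The Irak1 call was lost without the first AKR/N array (adjusted p = 0.225) or either C57BL/6 array (0.0819 and 0.0802).

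Of the brakes on interferon signalling, which include nucleases that clear stray nucleic acid, 17 of 20 were tested. In MRL/MpJ+/+ against C57BL/6, 1 was lower (12.2% of genes were called either way). In AKR/N against C57BL/6, 1 was higher and 2 lower (11.9% of genes). In MRL/MpJ+/+ against AKR/N, 2 were lower (8.75% of genes). The medians were -0.10, -0.06 and -0.04 in these comparisons. Samhd1, which removes the nucleotides that viruses need, measured 130 and 237 units in C57BL/6, 47.6 and 67.1 in AKR/N, and 82.2 and 61.7 in MRL/MpJ+/+. It was lower in MRL/MpJ+/+ (-1.14, adjusted p = 0.0132) and in AKR/N (-1.40, adjusted p = 0.00429) than in C57BL/6. Its 3 other tested probe sets differed by -0.64 to 0.14 and did not pass, and the MRL/MpJ+/+ call was lost without the second C57BL/6 array (adjusted p = 0.0906) or the second MRL/MpJ+/+ array (0.0967).

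Ptpn2, a phosphatase that switches off JAK and STAT proteins, was lower in AKR/N than in C57BL/6 by 0.40 (-0.40, adjusted p = 0.00942), and a second probe set passed as well (-0.41, adjusted p = 0.0195). The call of the first was lost without either AKR/N array (adjusted p = 0.066 and 0.0629). Isg20, an RNA exonuclease, was higher in AKR/N than in C57BL/6 (0.38, adjusted p = 0.0316) and lower in MRL/MpJ+/+ than in AKR/N (-0.37, adjusted p = 0.0464). Rnaseh2a, a subunit of the nuclease that removes RNA from DNA, was lower in MRL/MpJ+/+ than in AKR/N (-0.25, adjusted p = 0.0284). The Isg20 calls were lost with any 1 of the compared arrays left out (adjusted p from 0.0549 to 0.308), as was that of Rnaseh2a (0.0852 to 0.223).

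Of 68 further interferon-stimulated genes, 39 were tested. In MRL/MpJ+/+ against C57BL/6, 2 were higher (6.1% of genes) and 1 lower (6.12% of genes). In MRL/MpJ+/+ against AKR/N 1, Zc3hav1, was called, which was higher with its representative probe set (8.75% of genes were called either way). A second tested Zc3hav1 probe set went the other way in that comparison, by -0.31, and did not pass (adjusted p = 0.501 by limma). In AKR/N against C57BL/6, 5 were higher (6.39% of genes) and 0 lower (5.5% of genes), namely Ly6e, Ifi27, Ifi202b, Ifi27l2a and Ifitm2, and with 1 array left out 1 to 5 were called. For Ifi202b and Ifi27l2a both C57BL/6 arrays lay below the brightness filter, so part of the 5 higher genes was built in by the filter. The medians of the list were -0.09, -0.02 and -0.08 in MRL/MpJ+/+ against C57BL/6, AKR/N against C57BL/6 and MRL/MpJ+/+ against AKR/N. Ly6e, a surface protein that limits virus entry, measured 183 and 177 units in C57BL/6, 293 and 309 in AKR/N, and 280 and 252 in MRL/MpJ+/+. Both C57BL/6 arrays were lowest, and Ly6e was higher by 0.52 in MRL/MpJ+/+ (SE 0.0983, adjusted p = 0.00707) and by 0.70 in AKR/N (SE 0.0983, adjusted p = 0.00134). Without the first MRL/MpJ+/+ array the former call was lost (adjusted p = 0.0736).

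Ifi27, a small mitochondrial and nuclear membrane protein, measured 161 and 173 units in C57BL/6, 250 and 240 in AKR/N, and 242 and 235 in MRL/MpJ+/+. It was higher than in C57BL/6 by 0.48 in MRL/MpJ+/+ (adjusted p = 0.0116) and by 0.51 in AKR/N (adjusted p = 0.00785), and its second probe set pointed the same way (0.31 and 0.30) without passing. The MRL/MpJ+/+ call was lost without the first C57BL/6 array (adjusted p = 0.0532) or either MRL/MpJ+/+ array (0.0825 and 0.0626), and the AKR/N call without the first AKR/N array (0.0675). Leydig cell markers were also called against C57BL/6. Of 5 tested, 4 were higher in MRL/MpJ+/+ (6.1% of genes) and 4 in AKR/N (6.39% of genes) than in C57BL/6. In MRL/MpJ+/+ against AKR/N 1 was higher and 1 lower (8.75% of genes were called either way). The sum of the Leydig cell markers was 3321 to 3417 units in C57BL/6, 5414 to 5938 in AKR/N and 5478 to 5676 in MRL/MpJ+/+. The part of Leydig cells in the Ly6e, Ifi27 and Trim25 differences was not tested.

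Trim34a, a ligase of the TRIM family, measured 31.8 and 47.0 units in C57BL/6, 12.0 and 22.5 in AKR/N, and 2.39 and 4.13 in MRL/MpJ+/+. It was lower in MRL/MpJ+/+ than in C57BL/6 by 1.51 (-1.51, adjusted p = 0.00748), and without the second C57BL/6 array the adjusted p was 0.0704. Both MRL/MpJ+/+ arrays lay below the brightness filter for Trim34a, as they did for Irf2. Ifi202b, a protein of the family that binds DNA in the cytosol, measured 1.6 and 1.66 units in C57BL/6, 36.0 and 34.0 in AKR/N, and 17.5 and 6.54 in MRL/MpJ+/+. All arrays but the 2 of AKR/N lay below the brightness filter, and since the gene entered the test through AKR/N alone, its call, counted among the 5, is given with no fold or p.

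Of the MHC class I genes that interferon induces, 9 of 13 were tested. The representative probe sets of the same 2, H2-K1 and H2-D1, were lower in MRL/MpJ+/+ and in AKR/N than in C57BL/6. Over all genes 12.2% and 11.9% were called either way in these comparisons. Between MRL/MpJ+/+ and AKR/N 0 passed by limma, with 2 at an unadjusted p under 0.05. H2-K1, a classical antigen-presenting molecule, measured 498 and 507 units in C57BL/6, 57.5 and 74.4 in AKR/N, and 65.9 and 77.5 in MRL/MpJ+/+, a difference of -2.57 (adjusted p = 1.18e-06) for MRL/MpJ+/+ and -2.67 (adjusted p = 7.87e-07) for AKR/N. Its 3 other tested probe sets differed by -2.40, -0.63 and -0.51 for MRL/MpJ+/+ and -2.94, -0.58 and -0.62 for AKR/N, and the last of them did not pass. The size of the H2-K1 difference thus depended on the probe set, and no size is given here for the gene. Another probe set of H2-D1 went the opposite way, 1.63 higher in MRL/MpJ+/+ (adjusted p = 6.41e-05) and 1.93 higher in AKR/N (adjusted p = 1.96e-05), so no direction is given here for H2-D1 as a gene.

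**Figure D5:**
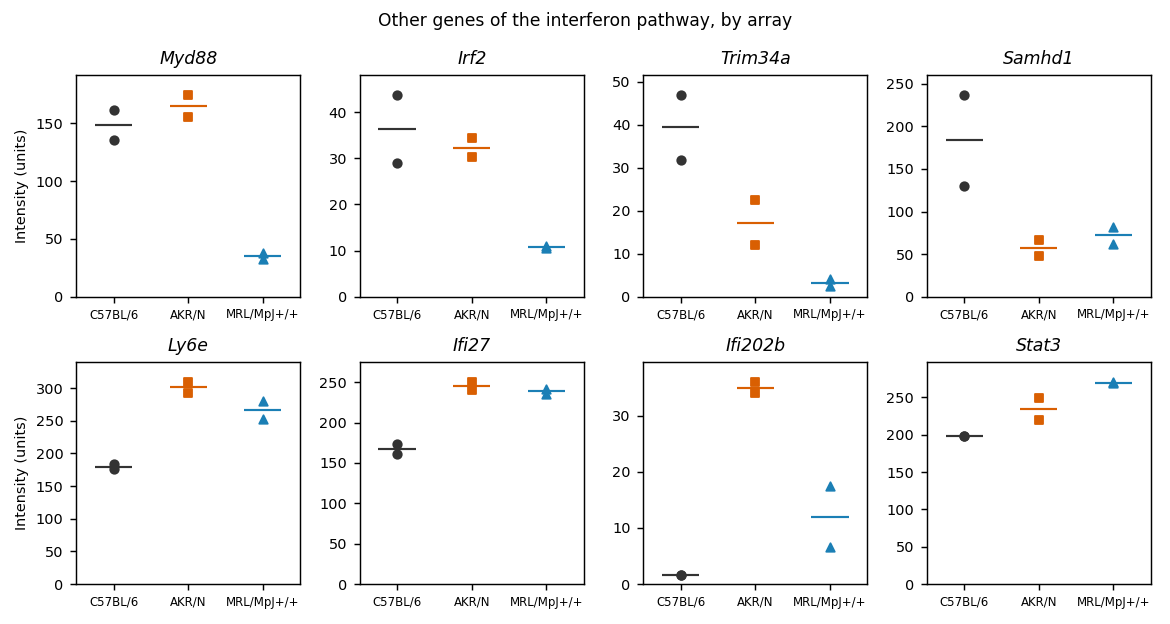
Intensity by array, with bars for the strain means, of Myd88, Irf2, Trim34a, Samhd1, Ly6e, Ifi27, Ifi202b and Stat3, each axis starting at 0. Myd88 and Trim34a are lowest in both MRL/MpJ+/+ arrays, and Ly6e and Ifi27 are lowest in both C57BL/6 arrays.

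Of 3 tested T cell markers, 3 of B and plasma cells and 2 of NK cells, 1, Cd3d, was called, with 1.17 and 1.70 units in C57BL/6, 113 and 173 in AKR/N, and 1.57 and 2.31 in MRL/MpJ+/+. Cd3d entered the test through the AKR/N arrays alone, so it is given by its values. In AKR/N, 4 of 7 spermatocyte markers were lower than in C57BL/6 (5.5% of genes were called lower). In MRL/MpJ+/+, 2 of these 7 were lower and 1 higher, and 3 of 6 round spermatid markers were lower. Over all genes 6.12% were called lower and 6.1% higher in that comparison. Whether the germ cell makeup of the RNA differed between strains was not tested. Markers of elongating spermatids summed to between 38410 and 46800 units on each array, so the defining transcripts of testis were present on all 6. Some blood and adipose markers were called too. Over all genes 6.39% were called higher in AKR/N and 6.1% in MRL/MpJ+/+ than in C57BL/6. Of 4 tested adipose markers 2 were higher in AKR/N and 1 in MRL/MpJ+/+ than in C57BL/6, and their sum was 198 to 224 units in C57BL/6, 309 to 589 in AKR/N and 258 to 294 in MRL/MpJ+/+. Of 2 tested blood markers 1, Hbb-b2, was higher in both strains. For Hbb-b2 and the called adipose markers, Car3 and Fabp4, both C57BL/6 arrays lay below the brightness filter. These genes entered the test through the strains where they were high, so a difference was built into their testing. Of 8 tested Sertoli cell markers 2 were higher in AKR/N. Epididymis markers summed to 48.6 units on 1 AKR/N array and 308 on the other. The part of these cells and tissues in the interferon response values, Ly6e and Ifi27 included, was not tested.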

How the data were processed

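Testes of 3 mouse strains were measured on 6 arrays, grouped by the strain in the labels. Per the labels, RNA came from a Trizol extraction and was labelled with biotin through a one-cycle cDNA kit, and the series' design gives 2 mice per strain. The authors deposited linear intensity values per probe set. From the values, every array has the same mean of 125.001 units after trimming 2% at each end. The software that summarised probes is not given in the sources used here, and no detection calls were used. That scaling was kept, and same-strain arrays correlated at 0.98 to 0.985, compared with 0.96 to 0.974 between strains.

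Intensities were transformed as log2(intensity + 16). Of 45101 probe sets, 64 controls were removed. A probe set entered the test if it exceeded the 40th percentile of the array on 2 or more of 6 arrays, which kept 29692. The linear model of limma 3.58.1 (R 4.3.3) had 1 mean per strain over all 6 arrays, left 3 residual degrees of freedom, and used eBayes with a trend. Benjamini-Hochberg adjustment ran over all tested probe sets in each of 3 comparisons and an F test, and a call is an adjusted p under 0.05. The fit was tested on simulated data.

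The members and lists were chosen with earlier results of these data known. Values by array are given for members called in any test and for the brightest of each role, and by choice after the values were seen for some others. From the pathway lists, up to 4 called genes with the smallest adjusted p are named. Replicate numbers did not pair the samples, since replicate differences correlated at 0.0425 to 0.0493 between strains. The alternatives were quantile normalization, median centring, other filters and pseudocounts, no variance trend, only the arrays compared, a replicate block, leaving out each array, and the mean of a gene's probe sets.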

Additional observations from a re-analysis of the deposited data

How the results depend on the processing

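Of the interferon response genes, Irf8, Trim25 and Dhx58 rest on few arrays. With no variance trend 0 members were called in MRL/MpJ+/+ against C57BL/6 and 0 in AKR/N against C57BL/6, and 1212, 1138 and 421 probe sets were called in the 3 comparisons, compared with 2975, 2960 and 2052. With the mean of a gene's probe sets 1 member was called in MRL/MpJ+/+ against C57BL/6, 1 in AKR/N against C57BL/6 and 1, Irf3, in MRL/MpJ+/+ against AKR/N. In AKR/N against C57BL/6, 1 member was called after median centring and 1 with only the arrays compared. Without the filter, 1327 probe sets were called in MRL/MpJ+/+ against AKR/N. Leaving out 1 array at a time gave 0 to 3 called members in MRL/MpJ+/+ against C57BL/6, 0 to 2 in AKR/N against C57BL/6 and 0 to 0 between MRL/MpJ+/+ and AKR/N, and 1483 to 2545, 1290 to 2607 and 694 to 2191 probe sets. With the replicate number as a block, 3, 2 and 0 members were called, as without it. In MRL/MpJ+/+ against AKR/N, where neither gene was called, Trim25 changed sign with quantile normalization (-0.021), without AKR/N replicate 1 or MRL/MpJ+/+ replicate 2 (range with 1 array left out -0.056 to 0.089) and with the mean of its probe sets (-0.096), and Dhx58 with the mean of its probe sets (0.051). The causes were not tested. Of the named pathway calls, Myd88, H2-K1 and H2-D1 in both of their comparisons and Ly6e in AKR/N kept the call under each alternative run. Another probe set of H2-D1 went the opposite way, so its calls give no direction for the gene. For pathway genes these runs used the representative probe set alone. The depth of these values is that of 2 arrays per strain, and signal over background is unknown.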
